A study of Mus musculus with 19 samples.

Results

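This section describes 9 genes that cut the extracellular matrix or restrain the enzymes that do so: the matrix metalloproteinase genes Mmp14, Mmp3, Mmp9 and Mmp19, the tissue inhibitor genes Timp1, Timp2 and Timp3, the tissue plasminogen activator gene Plat and the urokinase receptor gene Plaur. They were chosen by name. Of these 9, 7 were among the 12629 genes of the expression table, which the authors made after removing genes with low counts. Mmp3 and Mmp9 were not analysed here.

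The 19 RNA-seq libraries came from GFP-positive cells sorted from left cervical dorsal root ganglia (DRGs) 8 weeks after virus injection. The GFP groups had received AAV5-CMV-fGFP, which makes GFP alone. The α9k1 groups had received AAV5-CAG-α9-V5, which carries integrin α9, a receptor subunit for tenascin-C, together with AAV5-CMV-kindlin1-GFP, which carries the integrin activator kindlin-1. The crush groups also had their dorsal roots crushed, and the naive groups did not. There were 6 α9k1-naive, 5 GFP-naive, 4 α9k1-crush and 4 GFP-crush libraries. In the α9k1 groups the sort followed kindlin-1-GFP, so the sort did not select for α9 itself, and the CMV and CAG promoters are not restricted to neurons. The sample labels name C57BL/6 mice, and the study's methods name adult male Lewis rats. The reads were aligned to the mouse genome, with 47.5% to 54.1% of reads aligned and 3.87% to 4.05% of aligned bases mismatched. The libraries held 36.4 to 87.6 M read pairs.

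Matrix metalloproteinases are zinc enzymes that are made as inactive proenzymes and, once activated, cleave matrix proteins and other proteins at the cell surface. TIMPs bind their active sites, and TIMP-2 also takes part in the activation of proMMP-2 by the membrane-bound MMP-14. In the plasminogen system, the activators tPA and uPA turn plasminogen into plasmin, and the urokinase receptor holds uPA at the cell surface. In peripheral neurons these proteases are best known for growth cone advance and the remodelling of matrix after nerve injury.

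All levels below are the authors' normalised log2 values, and a difference of 1 on this scale is a doubling. A gene is said to have risen or fallen where its Benjamini-Hochberg adjusted p over all 12629 genes was under 0.1, in a limma fit of the 4 groups with 3 principal components of the library metrics as covariates. A value after a ± sign is the SD between libraries of a group unless it is marked as the SE of a difference. The labels do not tie the libraries to single animals, so the p-values measure the spread between these libraries. As these are bulk samples, fewer cells of a type and less RNA per cell cannot be told apart.

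Both transgenes were higher in the α9k1 groups on average. The kindlin-1 gene Fermt1 was 4.79 higher (log2) in α9k1-naive than in GFP-naive libraries and 6.21 higher in α9k1-crush than in GFP-crush libraries. For the α9 gene Itga9, these differences were 1.72 and 5.51, and all 4 passed the test. Fermt1 separated every α9k1 from every GFP library, but α9k1-naive replicate 2 had an Itga9 value of 2.38, within the GFP-naive range of 1.77 to 2.40. Without this library, 6 of the 7 genes described here still passed the test between the naive groups. The transgenes also differed between the α9k1 groups: Itga9 was 3.51 higher (adjusted p = 0.0404) and Fermt1 1.67 higher (adjusted p = 0.0591) in α9k1-crush than in α9k1-naive libraries. Crush and the level of the transgenes therefore cannot be told apart in comparisons of the α9k1 groups or in the interaction. All 12 neuronal markers were measured. Markers of satellite glia and Schwann cells, 10 of 10 measured, summed to between 12.61 and 14.16, so RNA of glial type was present in every library. The groups are therefore called sorted cells and not neurons.

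Promoter windows, from 250 bases before to 50 bases after the start of the gene, were found in RefSeq (GRCm38.p6) for 5 of the 7 genes: Mmp14, Timp1, Timp2, Timp3 and Plaur. Mmp19 and Plat were not among them. The windows of Plaur and Timp1 are shown because these genes had the largest increases among the 7 in α9k1-naive cells. Capitals mark the match to the AP-1 motif TGANTCA, searched on both strands.
Plaur (chr7:24462233-24462532, + strand): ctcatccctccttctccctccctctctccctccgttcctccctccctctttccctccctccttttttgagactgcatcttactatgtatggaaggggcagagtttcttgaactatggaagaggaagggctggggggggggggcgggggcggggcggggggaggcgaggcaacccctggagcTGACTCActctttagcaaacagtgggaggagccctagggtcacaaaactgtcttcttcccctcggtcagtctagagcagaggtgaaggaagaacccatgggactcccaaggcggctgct
Timp1 (chrX:20869916-20870215, + strand): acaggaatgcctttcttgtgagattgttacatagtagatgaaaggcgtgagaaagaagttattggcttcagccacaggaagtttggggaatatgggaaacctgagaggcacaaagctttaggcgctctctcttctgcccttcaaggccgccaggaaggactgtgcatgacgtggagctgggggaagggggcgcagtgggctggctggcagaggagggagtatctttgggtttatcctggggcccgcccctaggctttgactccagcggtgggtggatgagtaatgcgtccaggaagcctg

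The match in Plaur lay at bases -69 to -63 from the start. Among all 32851 windows of the same length, 7.81% held an AP-1 match. The motifs for STAT (TTCNNNGAA, in 8.3% of all windows), the cAMP response element (TGACGTCA, 1.79%), NF-κB (4.51%) and the serum response element (1.63%) had no match in any of the 5 windows. None of these motifs contains another of them, and a match is a description of letters and not of a binding site.

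**Figure D1:**
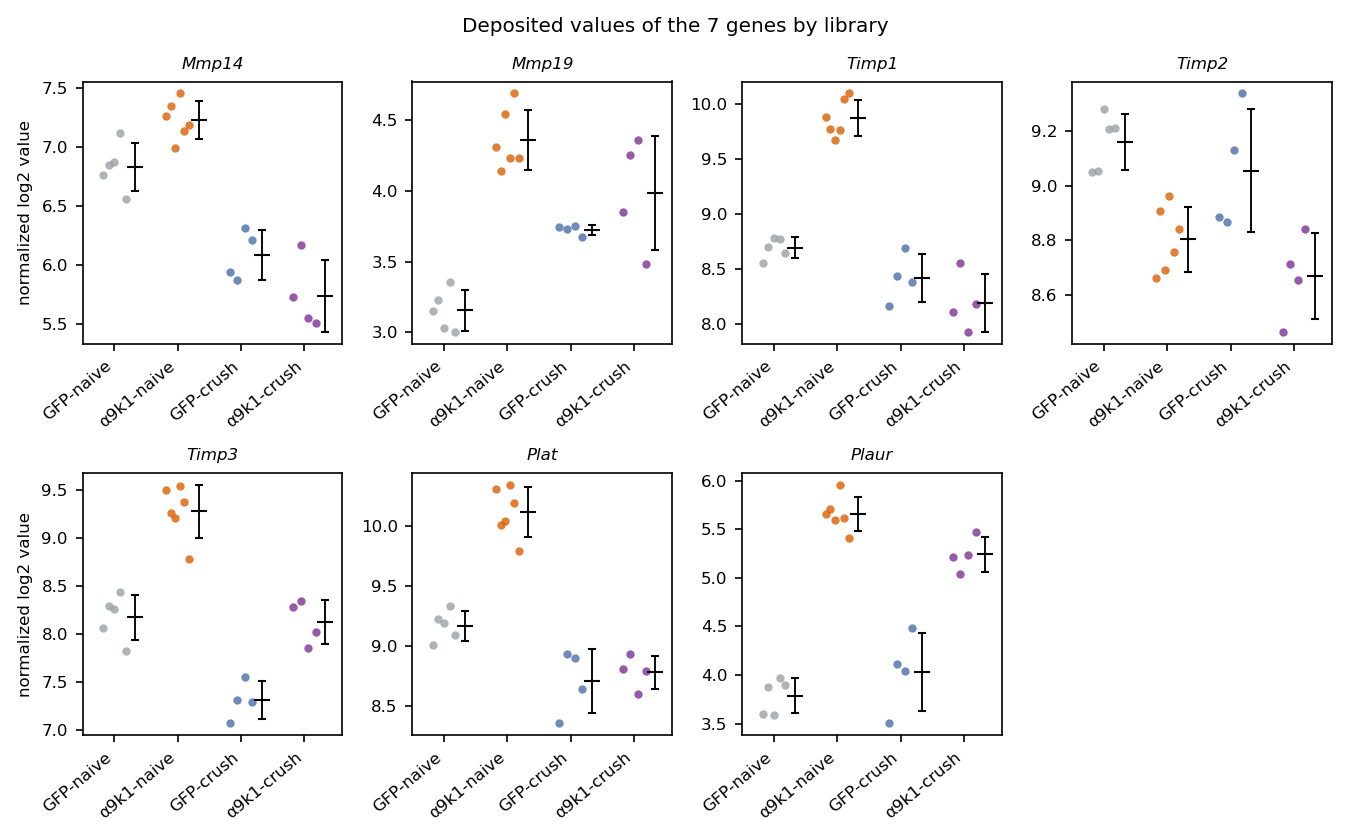
Normalised log2 value of each of the 7 genes (y axis, its own range in each panel) in every library of the 4 groups (x axis). Points are libraries, and the bar beside them gives the mean and SD. For Timp1 and Plat, all 6 α9k1-naive libraries lie above every other library, and for Plaur both α9k1 groups lie above both GFP groups.

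Mmp14 (ENSMUSG00000000957, GRCm38 chromosome 14, 54431612 to 54441265, plus strand) encodes the membrane-bound metalloprotease MT1-MMP. Its values were 6.77, 6.85, 6.87, 7.12 and 6.56 in the GFP-naive libraries, and in α9k1-naive libraries the lowest, median and highest were 6.99, 7.23 and 7.46. The GFP-crush libraries had 5.94, 5.88, 6.31 and 6.21, and the α9k1-crush libraries 5.73, 6.18, 5.55 and 5.51. The naive groups were thus both above both crush groups, with no overlap, while the ranges of α9k1 and GFP overlapped within each condition. Mmp14 rose in α9k1-naive against GFP-naive cells by 0.46 ± 0.18 (SE, adjusted p = 0.0773). It fell after crush, by 0.75 in GFP cells (SE 0.18, adjusted p = 0.0133) and by 1.06 in α9k1 cells (SE 0.32, adjusted p = 0.0623). Between α9k1-crush and GFP-crush the difference was 0.14, with a 95% interval from -0.68 to 0.95. Its direction depended on the covariates: the group means differed by -0.34, which was called without covariates (adjusted p = 0.0702), and the sign was also negative with 2 components and with only the groups compared. The increase without crush did not pass the test with only the groups compared, or when 1 of 7 libraries was left out (α9k1-crush replicate 3, α9k1-naive replicates 4 and 6, GFP-crush replicates 2 and 3, GFP-naive replicates 1 and 5: 0.39 to 0.56, adjusted p from 0.105 to 0.152). The decrease in α9k1 cells did not pass with only the groups compared or with the replicate block, or without 1 of 8 libraries (α9k1-crush replicates 3 and 4, α9k1-naive replicates 1, 2 and 4, GFP-crush replicate 1, GFP-naive replicates 1 and 3: -1.10 to -0.95, adjusted p from 0.102 to 0.151).

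Mmp19 (ENSMUSG00000025355, chromosome 10, 128790953 to 128800824, plus strand) encodes a secreted metalloprotease that cleaves basement membrane proteins. The GFP-naive libraries had values of 3.15, 3.23, 3.03, 3.36 and 3.0, the lowest of the 4 groups. The α9k1-naive libraries reached from 4.14 to 4.69 with a median of 4.28, and were the highest on average. The GFP-crush libraries lay close together, at 3.74, 3.73, 3.75 and 3.68, whereas the α9k1-crush libraries were spread from 3.48 to 4.36 (3.85, 4.25, 4.36 and 3.48). Each of the other groups lay above GFP-naive without overlap, and the α9k1-crush range overlapped those of both GFP-crush and α9k1-naive. Mmp19 rose by 1.05 ± 0.19 (SE, adjusted p = 0.00101) in α9k1-naive against GFP-naive cells, which is 2.07-fold. It also rose after crush in GFP cells, by 0.72 ± 0.19 (SE, adjusted p = 0.0209). This second call did not pass with only the groups compared (adjusted p = 0.102). In α9k1 cells the difference after crush was -0.36 (adjusted p = 0.587), and between the crush groups it was -0.03, with a 95% interval from -0.90 to 0.84, where the group means differed by 0.26. Mmp19 shares 789 exonic bases with Tmem198b and 212 with the antisense gene Gm47093, both on the opposite strand, and the reads carried no strand (49.87% to 50.05% on the annotated strand), so the reads of these genes cannot be told apart there. Tmem198b fell in α9k1-naive cells, by 0.71 (adjusted p = 0.0461).

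Timp1 (ENSMUSG00000001131, chromosome X, 20870166 to 20874735, plus strand) encodes a secreted inhibitor of most metalloproteinases. It was at 8.56, 8.70, 8.79, 8.78 and 8.65 in the GFP-naive libraries. In the α9k1-naive libraries the lowest value was 9.68, the median 9.83 and the highest 10.10, so that each of the 6 was above every library of the other groups. The crush groups overlapped, with 8.16, 8.44, 8.69 and 8.38 in GFP-crush and 8.11, 8.56, 7.93 and 8.18 in α9k1-crush libraries. Timp1 rose by 1.42 ± 0.14 (SE, adjusted p = 3.22e-06) in α9k1-naive against GFP-naive cells, or 2.68-fold. After crush it fell in α9k1 cells by 1.67 (SE 0.25, adjusted p = 0.00202) and in GFP cells by 0.45 (SE 0.14, adjusted p = 0.0423).

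Between the crush groups, Timp1 differed by 0.20, with a 95% interval from -0.43 to 0.84. This sign turned without covariates (-0.23, the difference of the group means) and with only the groups compared (-0.56). The interaction, which is the difference between the crush groups minus that between the naive groups, was -1.22 ± 0.28 (SE), with a 95% interval from -1.82 to -0.62 and an adjusted p of 0.0537. This interaction was not called with the replicate block (adjusted p = 0.329), or without α9k1-crush replicate 4, α9k1-naive replicate 1 or 4, GFP-crush replicate 2 or GFP-naive replicate 3 (-1.21 to -1.06, adjusted p from 0.117 to 0.196). The decrease in GFP cells was not called without covariates, with only the groups compared, with median-centred libraries, or without GFP-crush replicate 1 or GFP-naive replicate 2 (-0.36 and -0.45, adjusted p = 0.118 and 0.115), and the decrease in α9k1 cells was not called with only the groups compared (adjusted p = 0.11). Timp1 lies inside the synapsin gene Syn1, on the opposite strand, and shares no exonic base with it. Syn1 moved the other way, falling by 0.75 in α9k1-naive against GFP-naive cells and rising by 0.80 after crush in α9k1 cells.

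Timp2 (ENSMUSG00000017466, chromosome 11, 118301069 to 118355740, minus strand) encodes the inhibitor that also bridges MT1-MMP and proMMP-2. Its values were 9.05, 9.05, 9.28, 9.21 and 9.21 in GFP-naive and 8.89, 8.87, 9.13 and 9.34 in GFP-crush libraries. The α9k1-naive libraries ran from 8.66 to 8.96 with a median of 8.80, and the α9k1-crush libraries had 8.46, 8.71, 8.65 and 8.84. In each condition the α9k1 range lay below the GFP range, while naive and crush overlapped within each virus group. None of the 5 tests called Timp2. The difference was -0.27 (adjusted p = 0.133) between α9k1-naive and GFP-naive and 0.09 (95% interval from -0.49 to 0.66) between the crush groups. Without covariates these were -0.36 (adjusted p = 0.0087) and -0.39 (adjusted p = 0.00988), both called, and the first was also called after quantile normalization and without GFP-crush replicate 1 (-0.28, adjusted p = 0.0864).

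Timp3 (ENSMUSG00000020044, chromosome 10, 86300372 to 86349506, plus strand) encodes the inhibitor that stays bound to the matrix and also acts on ADAM proteases. It was at 8.06, 8.29, 8.25, 8.43 and 7.83 in the GFP-naive libraries. The α9k1-naive libraries were higher, from 8.78 to 9.54 with a median of 9.32, and the GFP-crush libraries lower, at 7.07, 7.32, 7.56 and 7.29. In the α9k1-crush libraries the values were 8.28, 8.35, 7.85 and 8.02, above GFP-crush without overlap and within the range of GFP-naive. Timp3 rose by 0.97 ± 0.19 (SE, adjusted p = 0.0023) in α9k1-naive against GFP-naive cells, and fell by 0.84 (SE 0.19, adjusted p = 0.0123) after crush in GFP cells. Between α9k1-crush and GFP-crush, Timp3 differed by 0.96 ± 0.42 (SE), with a 95% interval from 0.06 to 1.86 and an adjusted p of 0.522. Without covariates it was 0.82 and called (adjusted p = 6.83e-04). The difference of -0.85 after crush in α9k1 cells (adjusted p = 0.174) was called without covariates, with the first 2 components, with array weights, and without α9k1-crush replicate 2 or α9k1-naive replicate 6 (-0.94 and -1.0, adjusted p = 0.0989 and 0.069). Timp3 lies inside Syn3 on the opposite strand and shares 1733 exonic bases with it, so its reads and those of Syn3 cannot be told apart there. Syn3 itself passed none of the 5 tests, with -0.22 (adjusted p = 0.66) in α9k1-naive against GFP-naive cells.

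Plat (ENSMUSG00000031538, chromosome 8, 22757727 to 22782844, plus strand) encodes tPA, a serine protease that sensory neurons are known to release from growth cones. The GFP-naive libraries had values of 9.01, 9.22, 9.19, 9.34 and 9.09. Each of the 6 α9k1-naive libraries was above these, from 9.80 to 10.35 with a median of 10.12. The crush groups were below both naive groups and overlapped each other, with 8.36, 8.93, 8.90 and 8.64 in GFP-crush and 8.81, 8.93, 8.60 and 8.80 in α9k1-crush libraries. Plat rose by 0.87 ± 0.17 (SE, adjusted p = 0.00179) in α9k1-naive against GFP-naive cells, which is 1.82-fold. After crush it fell by 1.25 (SE 0.30, adjusted p = 0.0261) in α9k1 cells and by 0.45 (SE 0.17, adjusted p = 0.0846) in GFP cells. The crush groups differed by 0.06, with a 95% interval from -0.71 to 0.84 (-0.86 with only the groups compared), and the interaction of -0.80 (95% interval from -1.54 to -0.07) was not called (adjusted p = 0.303). The decrease in GFP cells had an adjusted p close to the threshold of 0.1. Its call was lost without any 1 of α9k1-crush replicates 1, 3 and 4 or α9k1-naive replicate 3. The same held for GFP-crush replicates 1 and 4 and GFP-naive replicates 2, 3, 4 and 5. The difference was then -0.45 to -0.30 (adjusted p from 0.1 to 0.23). This call was also lost with only the groups compared and with median-centred libraries. The call in α9k1 cells was lost with only the groups compared and with the replicate block.

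Plaur (ENSMUSG00000046223, chromosome 7, 24462484 to 24475968, plus strand) encodes the urokinase receptor, a lipid-anchored protein that also binds vitronectin and integrins. Its values were 3.6, 3.88, 3.59, 3.97 and 3.90 in GFP-naive and 3.50, 4.11, 4.04 and 4.48 in GFP-crush libraries. The α9k1-naive libraries ran from 5.41 to 5.96 with a median of 5.64, and the α9k1-crush libraries had 5.22, 5.04, 5.24 and 5.47. Both α9k1 groups lay above both GFP groups without overlap, and the naive and crush ranges overlapped within each virus group. Plaur rose in α9k1-naive against GFP-naive cells by 1.74 ± 0.20 (SE, adjusted p = 1.94e-05), or 3.33-fold. In α9k1-crush against GFP-crush the difference was 1.23 ± 0.43 (SE), with a 95% interval from 0.30 to 2.15, and it did not pass the test (adjusted p = 0.375). Without covariates it was 1.21 and called (adjusted p = 2.23e-05), as it was with the first 2 components. Crush was followed by a difference of 0.32 (adjusted p = 0.302) in GFP and of -0.20 (adjusted p = 0.817) in α9k1 cells. GFP-crush replicate 1 had the lowest value of its group, and without it the difference between the crush groups was called (1.23, adjusted p = 0.0827), as was that between GFP-crush and GFP-naive (0.55, adjusted p = 0.0299).

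In α9k1-naive against GFP-naive cells, 6 of the 7 genes rose (Mmp14, Mmp19, Timp1, Timp3, Plat and Plaur) and none fell, where 11.4% of all genes rose and 17.6% fell. The median difference of the 7 was 0.97, and that of all genes was -0.08. Over all genes, 1445 rose and 2224 fell as deposited, and 1654 and 1725 with median-centred libraries, where the same 6 genes rose. The ranges of the groups did not overlap for 6 of the 7, which are Mmp19, the 3 TIMP genes, Plat and Plaur, against 21.7% of all genes. The calls of Mmp19, Timp1, Timp3, Plat and Plaur were made in 9 of 9 alternative settings and with each of the 19 libraries left out in turn.

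In α9k1-crush against GFP-crush cells, limma called none of the 7 genes, where 0.728% of all genes rose and 0.182% fell. At an unadjusted p under 0.05 there were 2 of 7, Timp3 and Plaur, and 1151 of 12629 genes. Timp2, Timp3 and Plaur had ranges that did not overlap, as did 40.8% of all genes. The third component of the library metrics stood apart in the α9k1-crush libraries, at -1.51 ± 0.35 against -0.14 ± 0.54 in GFP-crush, and 74.5% of its variance was between groups. Without covariates, Timp3 and Plaur were called higher and Mmp14 and Timp2 lower, when 29.6% of all genes were higher and 28.3% lower. Which of these fits is nearer to the effect of the viruses was not tested.

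In GFP-crush against GFP-naive cells, Mmp14, Timp1, Timp3 and Plat fell and Mmp19 rose. These are 4 and 1 of 7 genes, where 15.7% of all genes fell and 7.39% rose. The median difference was -0.45 for the 7 and -0.08 for all genes. For Mmp14, Mmp19, Timp3 and Plat the ranges did not overlap (19.8% of all genes). The split of all genes depended on the scaling: 933 rose and 1984 fell as deposited, 1206 and 1373 after quantile normalization, and 1826 and 1180 with median-centred libraries. In that last setting Mmp14 and Timp3 still fell and Mmp19 still rose, while Timp1 (-0.31) and Plat (-0.31) did not pass the test.

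In α9k1-crush against α9k1-naive cells, Mmp14, Timp1 and Plat fell, 3 of 7 genes, and none rose. Over all genes, 5.27% fell and 4.47% rose. The median difference was -0.85 for the 7 and 0.00 for all genes, and the ranges of Mmp14, Timp1, Timp3 and Plat did not overlap (33.4% of all genes). Without covariates 6 of the 7 fell, all except Timp2, when 27.1% of all genes were lower and 28.5% higher. The interaction called 1 of the 7 genes, Timp1, as lower, where 0.847% of all genes were lower and 1.35% higher. Without covariates it called 5, all lower (Mmp14, Mmp19, Timp1, Plat and Plaur), against 16.1% of all genes lower and 23.3% higher. The comparisons share groups of libraries and are not independent of each other.

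**Figure D2:**
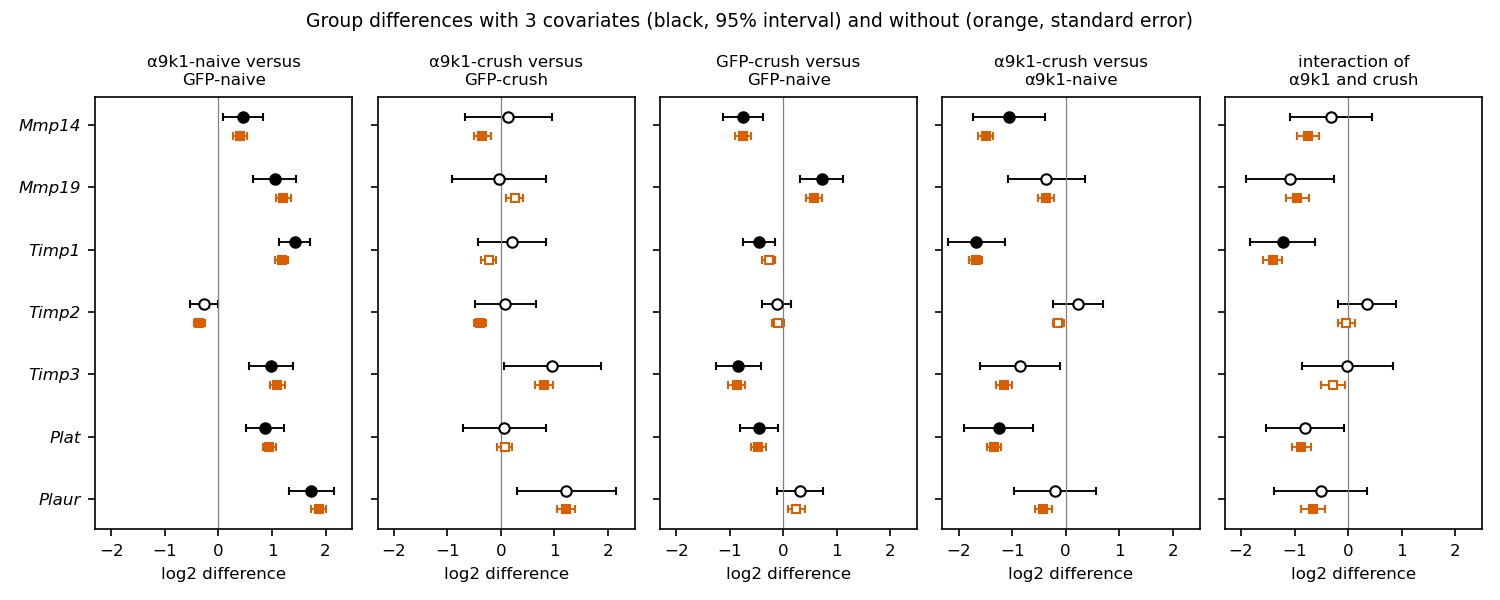
Difference in log2 value (x axis) of the 7 genes (y axis) in the 4 comparisons and the interaction. Black circles are the fit with 3 covariates and its 95% interval, orange squares the fit without covariates and its SE, and filled symbols passed an adjusted p of 0.1. The black intervals are wider for α9k1-crush against GFP-crush than for α9k1-naive against GFP-naive, for Plaur 0.30 to 2.15 around 1.23.

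Of 62 other genes of the protease systems, 34 were in the table. In α9k1-naive against GFP-naive cells, 10 of the 34 rose and 5 fell, where 11.4% of all genes rose and 17.6% fell. The median difference of the 34 was 0.09. By list, 2 of 10 other metalloproteinases rose and 2 fell, 3 of 11 ADAM and ADAMTS proteases rose and 2 fell, 2 of 5 other inhibitors and activators of metalloproteases rose, and 3 of 8 other plasminogen system genes rose and 1 fell. The largest increases were in Adamts1, a secreted protease that cleaves proteoglycans, with 3.09 (adjusted p = 7.18e-07), and Plau, which encodes uPA, with 2.87 (adjusted p = 1.24e-05). Transcripts for uPA and its receptor were thus both higher. The largest decreases were in Mmp23 (-0.87, adjusted p = 0.0569), Adam19 (-0.84, adjusted p = 0.0097) and Adamts10 (-0.62, adjusted p = 0.0638).

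Plau was at 5.84 ± 0.30 in α9k1-naive and 5.97 ± 0.54 in α9k1-crush libraries (n = 6 and 4), against 2.73 ± 0.32 in GFP-naive and 2.96 ± 0.49 in GFP-crush libraries (n = 5 and 4). For Adamts1 the means in the same order were 8.39 ± 0.22, 7.41 ± 0.33, 5.27 ± 0.16 and 3.82 ± 0.51. On average, both genes were higher in both α9k1 groups than in both GFP groups, as Plaur was. In α9k1-crush against GFP-crush cells 2 of the 34 rose and none fell, where 0.728% of all genes rose and 0.182% fell. Adamts1 was among the 2 (3.21, adjusted p = 0.0118). Plau differed by 2.09 there and did not pass the test (adjusted p = 0.305).

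After crush in GFP cells, 2 of the 34 genes rose and 8 fell, where 7.39% of all genes rose and 15.7% fell. The median of the 34 was -0.28. The genes that rose were Mmp12, the macrophage elastase (1.47, adjusted p = 0.0898), and Anxa2, a plasminogen-binding annexin (0.36, adjusted p = 0.0257). The largest decreases were in Adamts1 (-1.42, adjusted p = 0.0029), Lrp1, an endocytic receptor for protease-inhibitor complexes (-1.17, adjusted p = 0.014), and Mmp2, the gelatinase that MT1-MMP activates (-1.14, adjusted p = 0.00551). After crush in α9k1 cells, 3 of the 34 fell and none rose, where 5.27% of all genes fell and 4.47% rose. The 3 were Adamts17 (-2.19, adjusted p = 0.016), Timp4 (-1.57, adjusted p = 0.00418) and the protease nexin gene Serpine2 (-1.17, adjusted p = 0.0223). The interaction called none of the 34 in limma, with 6 at an unadjusted p under 0.05 (17.6% of the 34, against 14.0% of all genes).

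**Figure D3:**
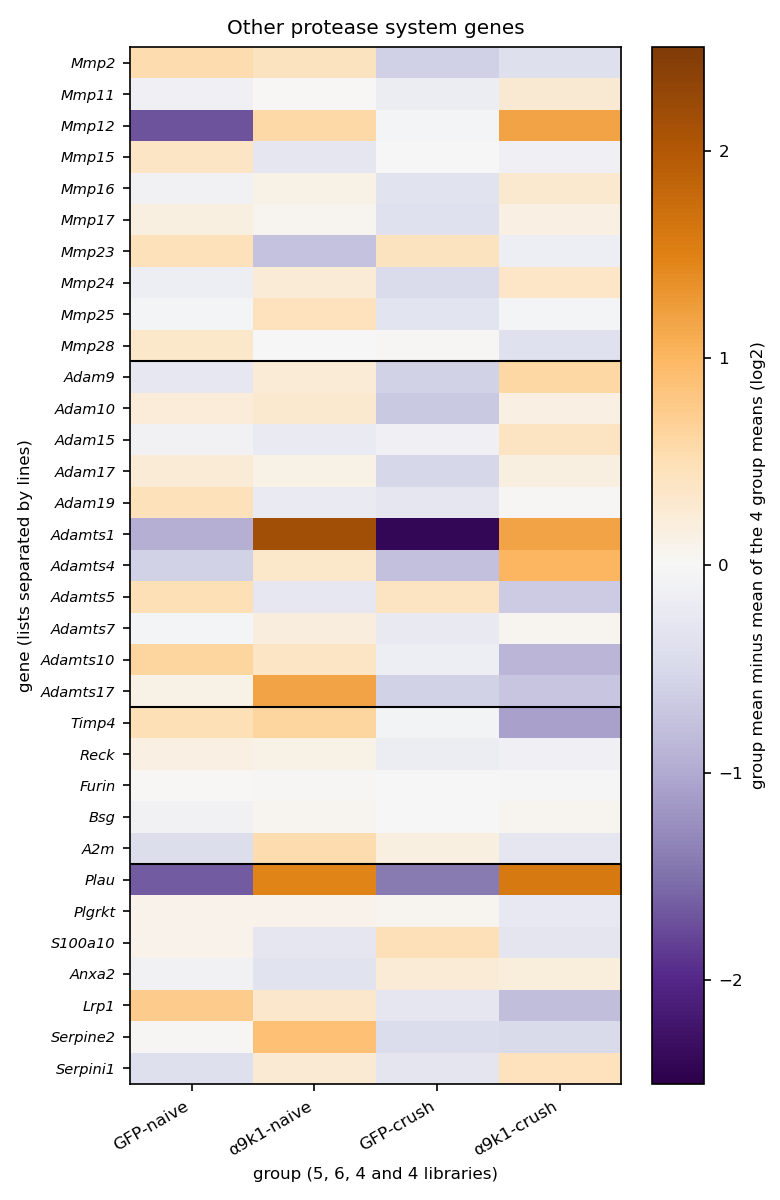
Mean log2 value of each of 33 of the other protease genes in a group minus the mean of the 4 group means (colour), with genes as rows in their lists and groups as columns. Plau and Adamts1 are among the strongest rows, orange in both α9k1 groups and purple in both GFP groups.

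Cell type markers and early response genes moved with the same groups. The summed level of 11 immediate early and dissociation genes such as Fos, Egr1 and Atf3 was 13.39 to 13.85 (log2) in α9k1-naive, 12.03 to 12.66 in α9k1-crush, 12.05 to 12.35 in GFP-naive and 10.77 to 11.21 in GFP-crush libraries. All 11 rose in α9k1-naive against GFP-naive cells and fell in GFP-crush against GFP-naive cells, and 9 rose in α9k1-crush against GFP-crush cells. In α9k1-crush against α9k1-naive cells 4 of them fell. The list was thus highest in the group where Timp1, Timp3 and Plat were highest. Its part in these results was not tested.

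The neuronal markers summed to 13.27 to 13.68 (log2) in GFP-naive and 13.01 to 13.47 in α9k1-naive libraries, and to 13.88 to 14.21 in GFP-crush and 13.83 to 14.21 in α9k1-crush libraries. The naive and crush groups did not overlap, and the neuronal sum was higher after crush, where Mmp14, Timp1 and Plat were lower. In α9k1-naive against GFP-naive cells 1 of the 12 rose and 3 fell, among them the neurofilament genes Nefl (-2.10) and Nefh (-2.31). After crush 6 rose and 1 fell in GFP cells, and 3 rose in α9k1 cells, again with Nefl (2.73) and Nefh (2.79). The median difference of the 12 after crush was 0.32 in GFP and 0.17 in α9k1 cells. A sum of linear values gives most weight to abundant genes such as Nefl. The part of these shifts in the values of the protease genes was not tested.

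Of 13 macrophage markers, 10 were measured, and Itgam, Cx3cr1 and Mrc1 were not analysed here. Their sum was 7.64 to 8.14 in GFP-naive libraries and higher in the other groups, at 8.99 to 9.62 in α9k1-naive, 9.35 to 9.92 in GFP-crush and 9.15 to 10.04 in α9k1-crush. In each of α9k1-naive and GFP-crush against GFP-naive, 7 of the 10 rose. Mmp19 was likewise lowest in GFP-naive libraries, and it rose in both of these comparisons. Between α9k1-naive and GFP-crush libraries the order differed. The mean of Mmp19 was higher in α9k1-naive (4.36 against 3.73, ranges without overlap), and that of the macrophage sum was lower (9.29 against 9.66). Whether macrophage RNA had a part in the values of Mmp19 was not tested.

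The sum of the glial markers was 13.56 to 13.87 and 13.62 to 14.16 in the GFP-naive and GFP-crush libraries, and 12.61 to 12.97 and 12.82 to 13.65 in the α9k1-naive and α9k1-crush libraries. In α9k1-naive against GFP-naive cells 2 of the 10 glial markers rose and 4 fell. Those that rose were the satellite glia markers Fabp7 (0.54) and Glul (0.54), and those that fell included Pmp22, Mbp and Sox10. After crush Fabp7, Glul and the satellite glia channel gene Kcnj10 fell in GFP cells (-1.05, -0.51 and -0.88) and in α9k1 cells (-2.28, -1.18 and -1.32), as Mmp14, Timp1 and Plat did. The part of glial RNA in these results was not tested. Fibroblast markers (5 of 6 measured, without Pdgfra) summed to 9.42 to 9.74, 8.11 to 8.43, 6.62 to 8.21 and 7.91 to 8.35 in the same order, and all 5 fell in α9k1-naive cells. Endothelial markers (3 of 6 measured, without Pecam1, Cdh5 and Kdr) summed to 6.21 to 6.75, 6.10 to 7.05, 3.72 to 5.71 and 3.69 to 5.81. The sums of these lists were therefore lower in the group where 6 of the 7 protease genes were higher, although Fabp7 and Glul within the glial list were higher. None of 10 neutrophil markers was analysed here.

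**Figure D4:**
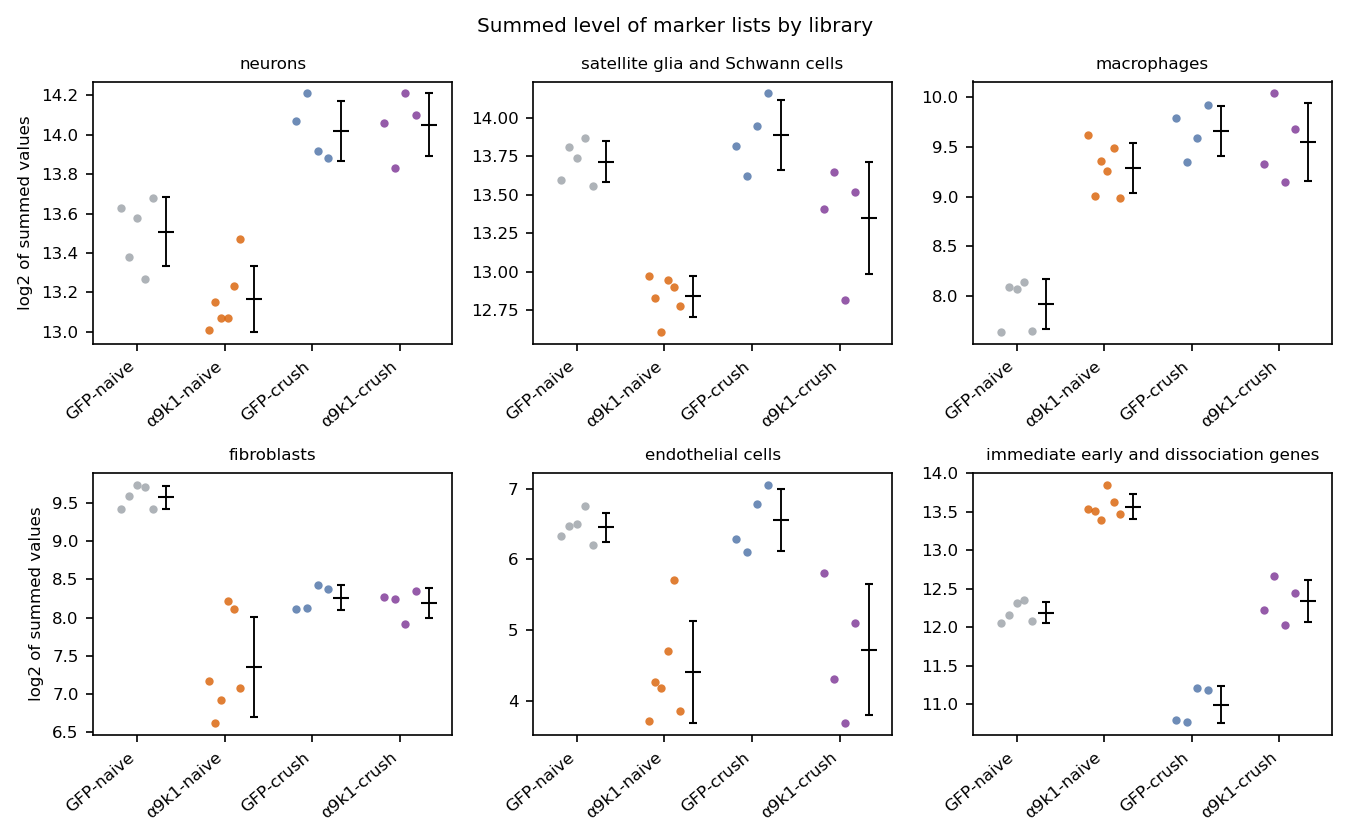
Summed level of the marker lists (y axis, log2 of the summed linear values) in every library of the 4 groups (x axis), with mean and SD. The immediate early and dissociation list is highest in α9k1-naive libraries, at 13.39 to 13.85, where the sums of the fibroblast, endothelial and glial lists are lower than in GFP-naive libraries; within the glial list, Fabp7 and Glul were higher.

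Over the 19 libraries, the genes whose values ran most like those of each of the 7 were as follows, by Pearson's r as a description, since group differences and library properties enter these values. Mmp14 was most like Tmod2 (0.988), Psat1 (0.986) and Bmp6 (0.981). Timp1 was most like Rgcc (0.980), Atf4 (0.966) and Srf (0.959), the last of which encodes the factor that binds the serum response element. Timp3 was closest to Elovl5 (0.984), Mcl1 (0.979) and Lgalsl (0.979), and Timp2 to BC005624 (0.939), Bphl (0.928) and Rfc1 (0.909). For Mmp19 these were H2-D1 (0.940), H2-Q6 (0.936) and H2-Q2 (0.927), class I histocompatibility genes that are nearly identical in part and whose counts are uncertain. Plat ran with Gm26953 (0.979), Serpine2 (0.978) and Pttg1ip (0.971), of which Serpine2 encodes an inhibitor of tPA. Plaur ran with Gm4899 (0.962), Birc3 (0.961) and Map3k8 (0.957), and Birc3 and Map3k8 both act in NF-κB signalling. With the group means taken out, r over these pairs ran from 0.379 (Plaur and Birc3) to 0.912 (Mmp14 and Tmod2). It was then 0.405 for Plaur and Map3k8 and 0.581 for Timp1 and Srf.

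Among the 7 genes themselves, Plat and Timp1 (r = 0.950) and Plat and Timp3 (r = 0.937) were the most alike over the 19 libraries. After the group means were taken out, r was 0.444 for the first pair and 0.853 for the second. Plaur and Mmp19 had r = 0.806 over all libraries and -0.23 within groups, so that their likeness lay in the group means.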

How the data were processed

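RNA-seq was done on sorted GFP-positive DRG cells (19 libraries, grouped by their labels). Per the study's methods, the authors made SMART-Seq v4 libraries, aligned reads to mm10/GRCm38 with STAR, collected metrics with Picard and quantified genes with Salmon. The values deposited by the authors are log2 values with a small pseudocount, normalised with cqn after removal of genes with low counts. They ranged from -0.77 to 16.7, and the pseudocount makes differences of low genes smaller. The deposited library metrics are counts of reads and bases, other read numbers by strand, fractions, percent values, ratios of coverage and scores, as deposited by the authors. The authors' deposited fold changes, p-values and adjusted p-values were not used. The values carry no gene names: the order was taken from the authors' gene table and checked through its average values (r = 0.959, and 0.0899 when shifted by 1 row). Of the genes, 12610 were in GENCODE M21.

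Of the 48 library metrics, 5 concern duplicates and 2 of these hold values that their names exclude (an estimated library size below 1 and a percent duplication above 100). They entered the components as deposited. One fit in limma (3.58.1, R 4.3.3) held the 4 groups and the first 3 principal components of 48 scaled metrics (45.9%, 24.1% and 11.5% of their variance), and the calling threshold was an adjusted p (Benjamini-Hochberg) of 0.1. It was tested on simulated data. The study's model also had batch, which the labels do not give. The interaction is the difference between the crush groups minus that between the naive groups. Marker sums are log2 of summed linear values. Tables and figures were made with Python 3.11.15, pandas 2.3.3, numpy 2.4.6 and matplotlib 3.10.9. Depth was 36.4 to 87.6 M read pairs. Counting error cannot be given from normalised values, and the SD between libraries includes it.

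The 9 genes and all lists were chosen with earlier results of these data known. Other protease genes were named by the 3 largest and 3 smallest differences among those called in a comparison. For each of the 7 genes the 3 genes with the highest r were also named. A value of Plau that did not pass a test, and values of the overlapping genes Syn1, Syn3 and Tmem198b, were added outside this rule. The results of 1 gene that this rule would name are not reported here, and the counts include it. Alternatives were no covariates, 2 components, only the groups compared, no genes among the lowest 25%, quantile normalization, median-centred libraries, array weights, a replicate block, each library left out and, chosen after seeing the data, components without the 5 metrics on duplicates. Replicate numbers gave no sign of pairing the samples.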

Additional observations from a re-analysis of the deposited data

Results flagged for a closer look

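For Timp1, the α9k1 effect differed between the conditions. It was 1.42 without crush and 0.20 after crush, so that the interaction was -1.22 (adjusted p = 0.0537 in limma over all genes). The mean value was 9.88 ± 0.17 in α9k1-naive and 8.69 ± 0.095 in GFP-naive libraries, and 8.19 ± 0.26 in α9k1-crush and 8.42 ± 0.22 in GFP-crush libraries. The difference of the crush means, -0.23, had the opposite sign to the fitted 0.20, and the interaction without covariates was -1.41. The call was lost with the replicate block (adjusted p = 0.329) and with 5 of 19 libraries left out in turn (adjusted p from 0.117 to 0.196). The transgenes were not at the same level in both conditions: Itga9 was 3.51 higher and Fermt1 1.67 higher (log2) in α9k1-crush than in α9k1-naive libraries, so crush and transgene level cannot be told apart here. By Dixon's gap test, no library stood apart from its group in any of the 28 combinations of gene and group that were checked. With 4 to 6 libraries a group this test finds only wide gaps, so it cannot exclude outlying libraries.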

How the results depend on the processing

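The values rest on 4 to 6 libraries a group, and the SE of Mmp14 in α9k1-crush versus GFP-crush was 0.38 with the covariates and 0.15 without. Over the single genes, 252 alternative values kept direction and call, 20 gained and 13 lost a call, and 23 changed direction. With libraries left out these numbers were 608, 5, 32 and 20. The cause was not tested.

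Of the 7 genes, 0 were called in α9k1-crush versus GFP-crush, against 4 without covariates and 1 with 2 components. In GFP-crush versus GFP-naive, 5 became 2 with only the groups compared and 3 with median-centred libraries. In α9k1-crush versus α9k1-naive, 3 became 6 without covariates, 6 with 2 components and 0 with only the groups compared. In the interaction, 1 became 5 without covariates and 5 with 2 components. Called in either direction were 0.911% of all genes in α9k1-crush versus GFP-crush (58% without covariates, 9.85% with 2 components), 9.74% in α9k1-crush versus α9k1-naive (55.6% and 56.6%) and 2.2% in the interaction (39.4% and 26.7%). In GFP-crush versus GFP-naive the share was 23.1%, with 7.32% for only the groups compared and 23.8% for median-centred libraries. With only the groups compared, the share was 0% in α9k1-crush versus GFP-crush and 1.6% in α9k1-crush versus α9k1-naive. It was 1.28% in α9k1-crush versus GFP-crush without the lowest 25% of genes. With array weights it was 16.2% in α9k1-crush versus α9k1-naive. The interaction could not be fitted with only the groups compared. Of the 34 other protease genes, the 2 in α9k1-crush versus GFP-crush became 20 without covariates, 6 with 2 components, 0 with only the groups compared and 1 without the lowest 25% of genes. The 10 in GFP-crush versus GFP-naive became 4 with only the groups compared. The 3 in α9k1-crush versus α9k1-naive became 17 without covariates, 18 with 2 components, 0 with only the groups compared and 5 with array weights. The 0 in the interaction became 13 without covariates and 7 with 2 components.

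With components that leave out the 5 metrics on duplicates, an alternative chosen after seeing the data, the calls among the 7 genes were 6, 0, 5, 3 and 1 in the 4 comparisons and the interaction, the same numbers as with all metrics, and Mmp19 in α9k1-crush versus GFP-crush turned to 0.035.

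With the replicate block, the calls among the 7 genes were 1 in α9k1-crush versus α9k1-naive and 0 in the interaction, and among the other 34 genes they were 9 for the naive groups and 1 in α9k1-crush versus α9k1-naive. The share of all genes called was then 2.62% in α9k1-crush versus α9k1-naive and 0.206% in the interaction. Replicate numbers gave no sign of pairing the samples. Over 25 pairs with the same number, the correlation of deviations from group means ran from -0.27 to 0.15, and 4 exceeded 0.1. Over 109 pairs with different numbers it ran from -0.22 to 0.26, and 15 exceeded 0.1. These correlations cannot exclude pairing. The block fits α9k1-naive replicate 6, alone in its number, by its own term, which leaves that library out in effect.

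In the interaction, 171 of all genes were higher and 107 lower as deposited, 128 and 134 after quantile normalization, and 118 and 167 with median-centred libraries.

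Direction changed as follows. Without covariates, α9k1-crush versus GFP-crush was -0.34 for Mmp14, 0.26 for Mmp19, -0.23 for Timp1 and -0.39 for Timp2, and Timp2 was -0.14 in α9k1-crush versus α9k1-naive and -0.030 in the interaction. With 2 components, α9k1-crush versus GFP-crush was -0.29 for Mmp14, -0.28 for Timp2 and -0.00155 for Plat, and Timp2 was -0.14 in α9k1-crush versus α9k1-naive and -0.00657 in the interaction. With only the groups compared, α9k1-crush versus GFP-crush was -0.15 for Mmp14, -0.56 for Timp1 and -0.86 for Plat, and Plaur was 0.46 in α9k1-crush versus α9k1-naive. With median-centred libraries, Plat was -0.019 in α9k1-crush versus GFP-crush and Timp2 was 0.013 in GFP-crush versus GFP-naive. With the replicate block, α9k1-crush versus GFP-crush was 0.11 for Mmp19 and -0.16 for Timp2, α9k1-crush versus α9k1-naive was 0.16 for Mmp19 and -0.16 for Timp2, and the interaction was 0.067 for Timp3.

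With single libraries left out, the calls among the 7 genes ranged from 3 to 5 in GFP-crush versus GFP-naive (3 without GFP-naive replicate 2), from 0 to 1 in the interaction and from 0 to 1 in α9k1-crush versus GFP-crush. Among the other 34 genes they ranged from 9 to 16 in α9k1-naive versus GFP-naive (9 without GFP-naive replicate 1), from 6 to 11 in GFP-crush versus GFP-naive, from 3 to 5 in α9k1-crush versus α9k1-naive and from 0 to 1 in the interaction. In α9k1-crush versus GFP-crush, Mmp14 ranged from -0.0042 to 0.33, Mmp19 from -0.15 to 0.33, Timp2 from -0.067 to 0.18 and Plat from -0.19 to 0.38. Plaur ranged from -0.45 to 0.075 in α9k1-crush versus α9k1-naive, and Timp3 from -0.17 to 0.14 in the interaction.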
